A study of Mus musculus with 9 samples.

Results

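Peaks of the transcription factors E2A and HEB were compared in CD73+ cells, which per the labels are thymocyte precursors that had committed to the gamma-delta T cell fate. The deposited list of CD73+ E2A peaks was intersected with the deposited list of CD73+ HEB peaks on chromosomes 1 to 19, X and Y. A peak that overlapped a peak of the other factor by at least 1 bp was called joint, and the others were called HEB alone or E2A alone. The comparison took in 33399 of the 79216 peaks of the 6 lists, 10194 for HEB and 23205 for E2A. Each peak was assigned to the gene with the nearest span in mouse build mm10.

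The study mapped E2A and HEB by chromatin immunoprecipitation and sequencing at 3 stages, DN3, CD73- and CD73+, with an input, an E2A and a HEB library at each. All cells were BALB/c and Rag2-/-, derived from fetal liver progenitors, and so could not rearrange receptor genes of their own. DN3 cells were harvested at day 7. For the other stages they were kept overnight with GP+E cells producing the MIY-KN6 gdTCR virus, with IL7, Flt3L and polybrene, then sorted as YFP+ DN3 cells and grown on the Notch ligand-bearing stromal line OP9-DL1 for 3 days. They were fixed for 10 min in 1% formaldehyde and sorted as Thy1+ YFP+ CD4- CD8- CD24+ cells, with CD73 separating the populations. Each antibody was a rabbit polyclonal serum against the C-terminus of its factor. The receptor is 1 clone, KN6, delivered by virus, so receptor signal, transduction and added culture cannot be told apart. Duplicates were joined by the authors before peaks were called, leaving 1 list per factor and stage, so values have no replicate error and no test of a difference was run.

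E2A, encoded by Tcf3, and HEB, encoded by Tcf12, are E proteins, basic helix-loop-helix factors that bind E-box DNA as dimers with themselves or with each other. In thymocyte precursors they act on genes of T lineage entry, receptor rearrangement and the pre-TCR checkpoint, and Id proteins, which lack the DNA-binding part, hold them back. Strong signals through a gamma-delta T cell receptor are known to raise Egr factors and Id3 and thereby to lower E protein activity. Which sites still carry either or both factors in committed cells is the question that these lists address.

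A peak's score, given by the authors, is 10 times the negative log10 of its p-value from MACS. No peak used here scored under 50, and peaks of 100 or more are called strong here. It ranks peaks within a list only, since read depth is unknown. The CD73+ E2A list stood apart before any comparison was made. It was the longest of the 6 lists, yet 7.02% of its peaks were strong, against 24.11% of the CD73+ HEB list and 40.55% of the DN3 E2A list. Both CD73+ lists were called against 1 shared input library. The peaks do not settle which CD73+ list belongs to which antibody. Strong CD73+ HEB-alone peaks overlapped a DN3 E2A peak in 82.64% of cases and a DN3 HEB peak in 73.45%. In the CD73- lists the order was reversed, with 26.25% at an E2A peak and 41.47% at a HEB peak. Strong CD73+ E2A-alone peaks overlapped a DN3 E2A peak in 3.425% of cases and a DN3 HEB peak in 11.45%. In the CD73- lists these shares were nearly equal, at 11.55% for E2A and 11.25% for HEB. The joint sites are the same whichever way the CD73+ lists are named. Exchanging the names would exchange HEB alone with E2A alone, and would give every HEB score, rank or share below to E2A and the reverse. A place without a peak is one where none was called. Peak lists hold no RNA, so the identity of the cells was not checked by marker expression.

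The start regions of 5 genes show sequence touched by each class of peak, as the 250 bases before the start in RefSeq, GRCm38.p6 (mm10), written 5′ to 3′ along the strand of the gene. Capitals mark CAGCTG, and CAGGTG or its reverse complement CACCTG, E-box forms that E proteins are known to bind, searched on both strands. The first 3 overlapped joint peaks, Lat a HEB-alone peak and Ifng an E2A-alone peak. Arpp21 and Bbc3 have a second start whose window met the same peak, and the window with more matches is printed. Arpp21 encodes a thymocyte RNA regulator (chr9:112217352-112217601, minus strand), Bbc3 the death-promoting protein PUMA (chr7:16310011-16310260, plus strand) and Cd3g the CD3 gamma chain (chr9:44980432-44980681, minus strand). Lat encodes an adaptor of the T cell receptor (chr7:126369569-126369818, minus strand) and Ifng interferon gamma (chr10:118440796-118441045, plus strand).
Arpp21: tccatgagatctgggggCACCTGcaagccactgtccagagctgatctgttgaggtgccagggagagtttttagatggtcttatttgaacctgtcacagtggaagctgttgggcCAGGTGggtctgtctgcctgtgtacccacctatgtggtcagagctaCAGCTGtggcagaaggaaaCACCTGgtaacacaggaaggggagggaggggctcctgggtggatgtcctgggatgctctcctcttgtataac
Bbc3: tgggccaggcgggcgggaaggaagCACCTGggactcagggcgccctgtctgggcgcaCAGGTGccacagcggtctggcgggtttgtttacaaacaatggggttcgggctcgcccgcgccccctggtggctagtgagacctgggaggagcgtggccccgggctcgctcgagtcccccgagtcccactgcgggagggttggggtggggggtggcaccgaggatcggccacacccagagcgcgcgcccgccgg
Cd3g: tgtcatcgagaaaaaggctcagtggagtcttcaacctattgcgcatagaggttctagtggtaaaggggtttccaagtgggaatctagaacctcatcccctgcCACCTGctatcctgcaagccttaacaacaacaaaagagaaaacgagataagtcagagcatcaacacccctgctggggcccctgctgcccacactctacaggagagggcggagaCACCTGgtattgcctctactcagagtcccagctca
Lat: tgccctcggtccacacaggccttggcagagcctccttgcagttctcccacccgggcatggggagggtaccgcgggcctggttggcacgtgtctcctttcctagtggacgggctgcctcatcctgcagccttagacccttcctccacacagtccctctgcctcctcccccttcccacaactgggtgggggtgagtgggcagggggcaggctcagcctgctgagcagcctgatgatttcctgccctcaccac
Ifng: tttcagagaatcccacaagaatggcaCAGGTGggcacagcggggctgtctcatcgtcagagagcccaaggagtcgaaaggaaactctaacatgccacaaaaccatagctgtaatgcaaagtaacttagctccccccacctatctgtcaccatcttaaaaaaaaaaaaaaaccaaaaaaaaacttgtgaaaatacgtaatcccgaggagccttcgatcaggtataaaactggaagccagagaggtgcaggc

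The printed Arpp21 window held 4 matches and those of Bbc3 and Cd3g 2 each, while the second windows of Arpp21 and Bbc3 held 3 and 0. No match lay in the window of Lat, and Ifng had 1. Over the whole promoter table, which covers 17492 of 21895 genes, 31.94% of 21263 windows of 300 bases (250 before and 50 after a start) held either form. Among 341 windows touched by a HEB-alone peak the share was 56.01% (95% Wilson interval 50.71% to 61.18%, counting error only). It was 39.22% (27.03% to 52.91%) in 51 joint windows and 68.18% (47.32% to 83.64%) in 22 E2A-alone windows. The intervals of the 3 classes overlap. A match describes the letters of a window and is not a measured binding site, and the sequence under peaks elsewhere was not used here.

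Of 10194 HEB peaks, 1511 were joint, 14.82% (14.15% to 15.53%). Of 23205 E2A peaks, 1566 were joint, 6.749% (6.433% to 7.079%). The strongest peaks of either factor were mostly joint. At a score of 1000 or more, 95 of 101 HEB peaks (94.06%) and 20 of 24 E2A peaks (83.33%) had the other factor. Of E2A peaks scoring 200 to 500, 85.02% were joint, and of HEB peaks in that band 36.04%. The band held 227 of 23205 E2A peaks but 849 of 10194 HEB peaks, so it is not an equal rank in both. The 2 shares therefore do not show a difference between the factors. Of the lowest peaks, at 50 to 60, 7.322% of HEB and 3.426% of E2A peaks were joint. Most single-factor peaks were not near misses. More than 10 kb from any peak of the other factor lay 6127 of 8683 HEB-alone peaks (70.56%) and 18491 of 21639 E2A-alone peaks (85.45%). Within 100 bp of one lay 124 HEB-alone peaks (1.428%) and 121 E2A-alone peaks (0.5592%).

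**Figure D1:**
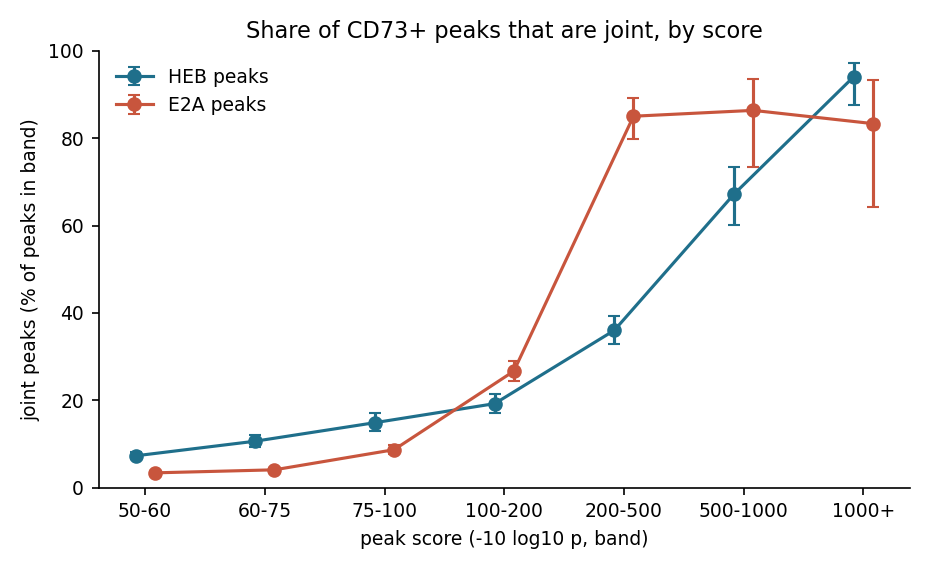
Share of CD73+ HEB and E2A peaks that overlapped a peak of the other factor (vertical axis, percent) in bands of peak score (horizontal axis, 10 times the negative log10 of p). Points are shares of all peaks in a band and bars are 95% Wilson intervals. E2A peaks reached 85.02% joint at scores of 200 to 500 and HEB peaks 94.06% at 1000 or more. A band of score is not an equal rank in both lists.

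Overlapping peaks formed 1596 pairs at 1481 separate sites, with a median of 42 bp between midpoints. Scores of different lists cannot be set against each other, so each peak was placed by the percentage of its own list that scored lower. The pairs were split at a HEB peak width of 300 bp, a width chosen after the data were seen. In 692 pairs with a wider HEB peak, the median HEB peak stood above 94.98% of the HEB list and the median E2A peak above 88.01% of the E2A list, and HEB had the higher place in 66.76%. In the other 904 pairs these medians were 59.15% and 83.1%, and HEB had the higher place in 22.79%. Wide pairs were a median of 1260 bp from a gene span and overlapped a DN3 E2A peak in 90.46% of cases, against 21850 bp and 41.15% for the narrow pairs. A wide peak overlaps more peaks by construction. Wider HEB peaks also scored higher, with HEB-alone medians of 55.55 up to 150 bp and 238.8 over 500 bp. The split on width thus fixed part of the contrast in HEB places in advance. The rank correlation of HEB and E2A scores over all pairs was 0.3828 (Spearman, n = 1596 pairs that share 1 input library).

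**Figure D2:**
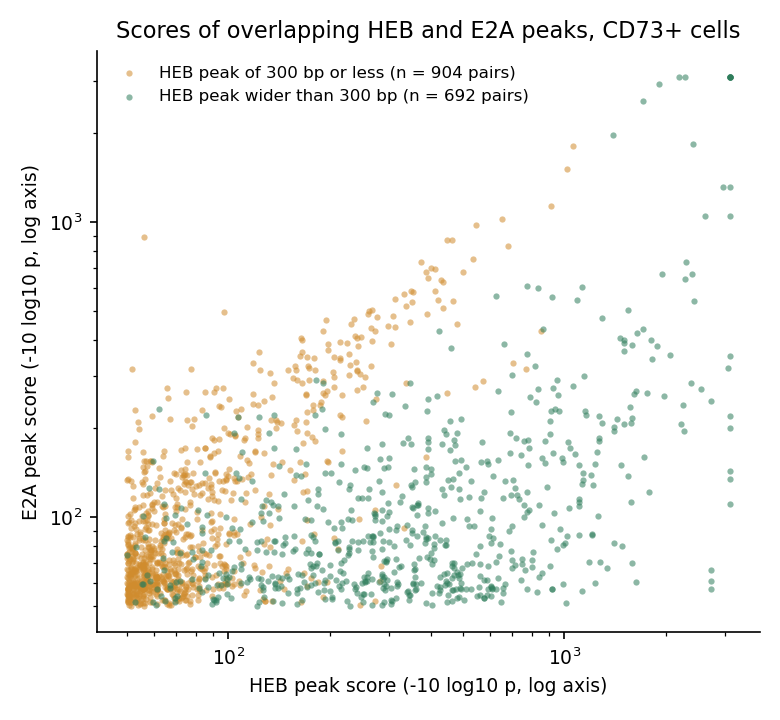
HEB score (horizontal) against E2A score (vertical) of each overlapping pair in CD73+ cells, both as 10 times the negative log10 of p on log axes, coloured by the width of the HEB peak. Each axis ranks peaks within 1 list. Wider HEB peaks scored higher across the HEB list, so the HEB medians differ in part through the split itself. HEB medians were 354.0 for the 692 wide and 69.6 for the 904 narrow pairs, while E2A medians were 84.62 and 78.25.

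The genes named from here on were taken from lists of T cell biology by a rule of rank or were named whatever their values. Among the lymphoid genes the joint peak nearest Ly6c2, a surface marker gene of T cells and monocytes, scored the most, at 3100.0 for HEB and 1314.87 for E2A. It lay 21058 bp from the gene, a member of a family of near-identical copies. For E2A and HEB in turn, the CD73- lists scored 3156.41 and 3100.0 there and the DN3 lists 2990.12 and 3100.0. Its HEB score of 3100.0 was a tie shared by 9 HEB peaks. No list of high-background regions was used, so whether this place is one was not tested. Trac, the constant region of the receptor alpha chain, came next. Its joint peak scored 3062.6 for HEB and 319.93 for E2A at chr14:54227048-54227924, 2850 bp beyond the gene. At E2f2, a cell cycle transcription factor, HEB scored 2721.23 and E2A 248.16 within the gene (chr4:136176920-136178355). Ccnd3, a cyclin of dividing pre-T cells, held joint peaks at 2 places within the gene, with HEB at 1471.55 and 1123.99 and E2A at 150.89 and 603.61. The E2A peak was thus the higher at the place where the HEB peak was the lower.

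Joint peaks also lay at genes that restrain division. Btg2, an antiproliferative gene, had HEB at 1550.43 and E2A at 503.59, 7137 bp from the span (chr1:134066957-134067728). Klf13, a zinc finger factor of lymphocytes, had 1504.17 and 207.69, 59955 bp away. Btg1, a relative of Btg2, had 2 joint sites over 100 kb away, with HEB at 648.66 and 363.75 and E2A at 51.69 and 109.69. Of 14 antiproliferative and quiescence genes, 4 (28.57%) had a joint peak, against a background of 5.28% of all genes, and 8 (57.14%) had a HEB-alone peak, against 22.5%. Both shares were above the background. The median span of the set was 16.89 kb, against 17.15 kb for all genes. Peaks were assigned at any distance, as at Btg1, so a span does not bound the ground from which a gene gathers peaks. E2A-alone peaks were assigned to 5 (35.71%), against 31.2% of all genes.

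Among T lineage factors, Tcf7, which encodes TCF-1, had a joint peak of 1784.76 for HEB and 121.77 for E2A, 30472 bp from the gene (chr11:52313855-52314880). Gata3, a factor needed for T lineage entry, had 605.74 and 58.01, more than 100 kb away. Lef1, a relative of Tcf7, had 590.88 and 57.0, 162495 bp away. Notch3, a receptor of early thymocytes, had 952.02 and 78.18 inside the gene (chr17:32164081-32164724). These HEB peaks scored 100 or more, and the E2A peaks of Gata3, Lef1 and Notch3 did not. That score was reached by 24.11% of the HEB list but only 7.02% of the E2A list. It is therefore not an equal rank in both. Notch1, the receptor that drives T lineage commitment, had no joint peak. It had a HEB-alone peak of 259.86 and, 3671 bp from it, an E2A-alone peak of 65.32. Bcl11b, a commitment factor, had HEB alone at 200.61 and E2A alone at 59.59, in different places. Of 16 commitment factors, 5 (31.25%) had a joint peak, 11 (68.75%) a HEB-alone and 11 (68.75%) an E2A-alone peak. Among all genes these shares were 5.28%, 22.5% and 31.2%. The median span of the list was 51.66 kb, against 17.15 kb for all genes.

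The E proteins and their inhibitors were themselves among the assigned genes. Id2, an Id inhibitor, had a joint peak of 1267.08 for HEB and 185.99 for E2A, 93079 bp from the gene, and 9 HEB-alone peaks of up to 712.81. Id3, the inhibitor induced by gamma-delta receptor signals, was assigned no joint peak. It had 7 HEB-alone peaks, the highest 94.34, and 2 E2A-alone peaks, the highest 71.78 and within the gene. The rule of the nearest span bears on the contrast of Id2 and Id3. The Id3 span ends at chr4:136145392, and the joint peak within E2f2 starts at chr4:136176920. That peak is closer to Id3 than the joint peak of Id2 is to Id2. Tcf12, which encodes HEB, had 4 HEB-alone peaks of up to 241.93 and 2 E2A-alone peaks of up to 64.7. No peak of either factor was assigned to Tcf3, which encodes E2A, or to Id1.

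Several gamma-delta genes had joint peaks. Nt5e encodes CD73 itself, the marker by which the cells were sorted, and its joint peak of 314.3 for HEB and 128.37 for E2A lay 231059 bp from the gene (chr9:88096376-88096550). Sox4, a factor of IL-17-producing gamma-delta cells, had 836.46 and 272.62 at 5823 bp. Cd163l1, a scavenger receptor gene, had 771.56 and 121.63, and Blk, a kinase of the same programme, had 486.73 and 62.25. At Il23r, the interleukin 23 receptor, HEB scored 159.73 and E2A 291.4. Sox13, a further factor of the programme, had HEB alone at 87.06. Of the 15 genes of the IL-17 programme, 4 (26.67%) had a joint, 8 (53.33%) a HEB-alone and 10 (66.67%) an E2A-alone peak. Each share was above that of all genes (5.28%, 22.5% and 31.2%), in a list whose median span, 33.93 kb, was also longer.

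Of 15 genes of the interferon gamma and innate programme, 8 (53.33%, against 22.5% of all genes) had a HEB-alone peak and 4 (26.67%, against 31.2%) an E2A-alone peak. None had a joint peak, which in so short a list is near the 5.28% of all genes. The median span was 10.16 kb. Ifng had HEB alone at 181.73, 22966 bp away, and E2A alone at 62.95 beside its start, in the window printed above. Fasl, the death ligand, had HEB alone at 148.92, 109310 bp away. Zbtb16, which encodes PLZF, the factor of innate-like T cells, had HEB alone at 63.9, and Tbx21, which encodes T-bet, had E2A alone at 64.7. These last values are close to the minimum score of 50.

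**Figure D3:**
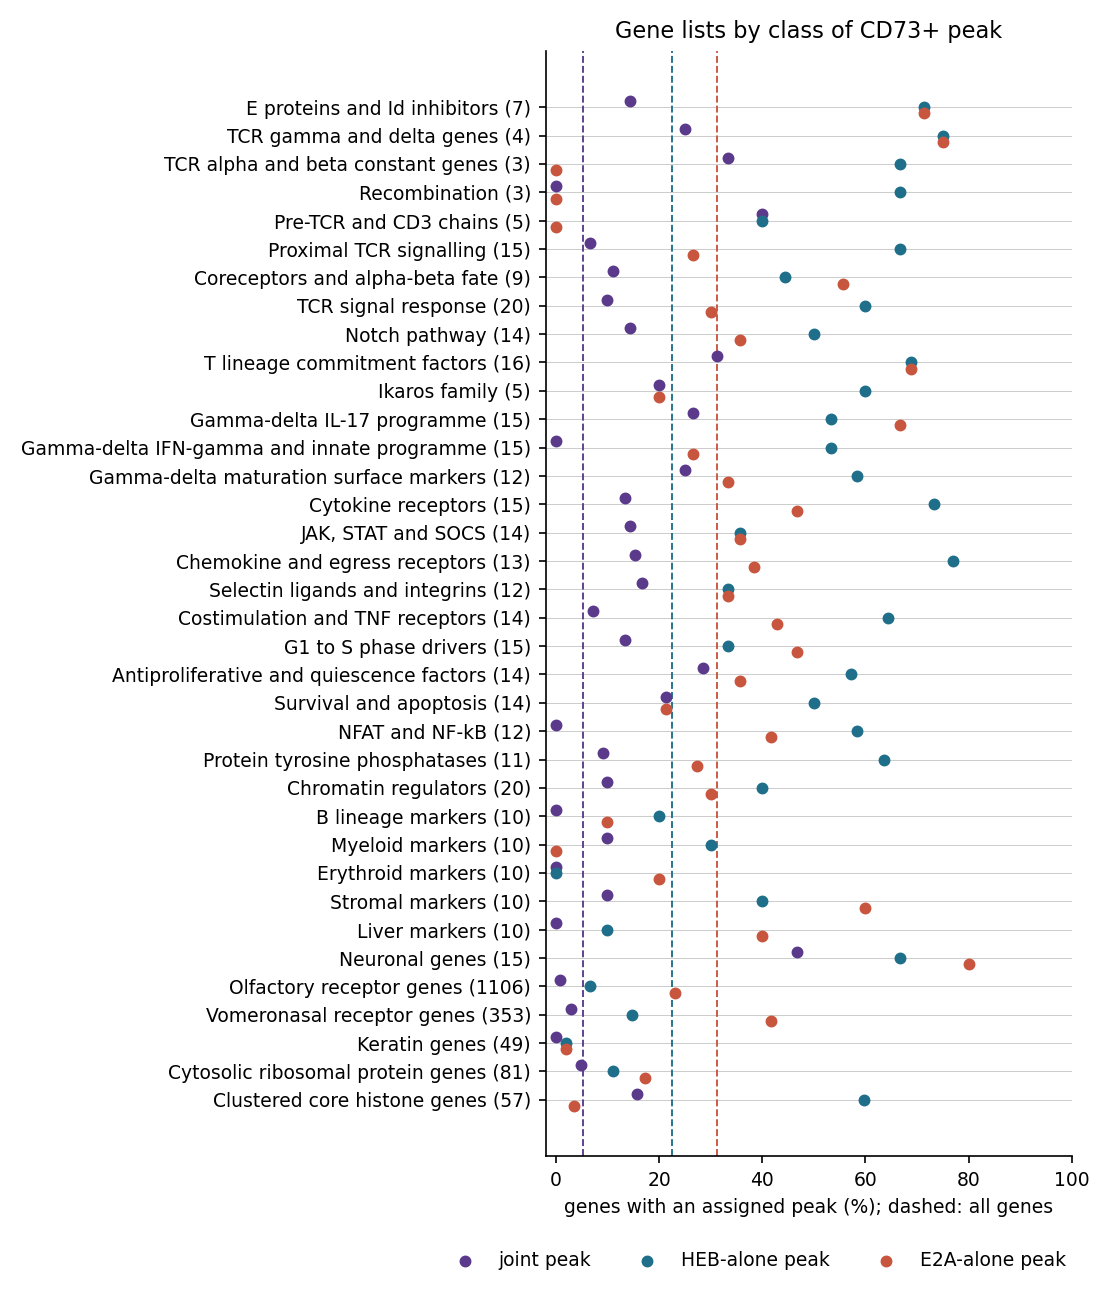
Percentage of genes in each list or family (number of genes in parentheses) with an assigned joint, HEB-alone or E2A-alone peak. Dashed lines mark all 21895 genes, at 5.28%, 22.5% and 31.2%. Most lymphoid and signalling lists lie to the right of the HEB-alone line, up to 76.92% for chemokine and egress receptors.

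HEB-alone peaks covered genes of T cell receptor signalling and its early targets. Nr4a1, an orphan receptor gene induced by receptor signals, had HEB alone at 750.71 within the gene (chr15:101258224-101258885) and no E2A peak. The nearest E2A peak was 52509 bp from that HEB peak. The adaptor gene Lat had HEB alone at 445.83, 23632 bp away, and at its start at 347.37. Egr2, another early target, had HEB alone at 54.19, 30492 bp away, and Egr1 and Egr3 had no assigned peak. Of 20 genes of the TCR signal response, 12 (60%) had a HEB-alone peak, 6 (30.0%) an E2A-alone peak and 2 (10.0%) a joint peak. Of 15 proximal signalling genes the counts were 10 (66.67%), 4 (26.67%) and 1 (6.667%). The joint peak was that of Prkcq, the gene of protein kinase C theta, with HEB at 362.95 and E2A at 101.96, 109311 bp away. The HEB-alone shares were above 22.5% in both lists and the E2A-alone shares near or below 31.2%, the shares of all genes. The joint share of all genes was 5.28%. Median spans were 7.37 kb in the first list and 50.14 kb in the second.

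Genes of receptor assembly carried peaks of all classes. Rag1, a recombinase gene, had HEB alone at 169.48, 927 bp from the gene (chr2:101650459-101650825), and no E2A peak within 100 kb. Dntt, the terminal transferase that adds bases at joins, had HEB alone at 283.58. Trbc2, a beta chain constant region, had HEB alone at 1026.35, one of 6 HEB-alone peaks scoring at least 1000. Trgc1, a gamma chain constant region, had HEB alone at 482.56 and, 2780 bp from it, E2A alone at 50.67. Trdc, the delta constant region, was the nearest used gene to joint peaks of 986.83 for HEB and 153.86 for E2A, which lay 582172 bp away, and to 13 HEB-alone and 10 E2A-alone peaks. Variable segments of the receptor loci are not among the genes used, so distant peaks there fall to the constant regions. Of the CD3 chains, Cd3g had joint peaks of 347.65 and 54.46 at its start, Cd247 of 486.66 and 124.91, and Cd3d had HEB alone at 57.77. Ptcra, the pre-TCR alpha chain, had no assigned peak. E2A-alone peaks were assigned to 3 of 4 gamma and delta genes and to none of the 3 alpha and beta constant, 3 recombination and 5 pre-TCR and CD3 genes. Among all genes 31.2% had such a peak, and these lists are short. Median spans in these lists were 1.452 to 11.28 kb.

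Receptors for cytokines and chemokines often had HEB-alone peaks. Ccr9, a thymic homing receptor, carried both kinds of site, a HEB-alone peak of 1078.82 that was 1923 bp from the nearest E2A peak, and a joint peak of 902.92 for HEB and 68.45 for E2A. Cxcr4, the receptor that holds precursors near pre-TCR niches, had HEB alone at 487.67 and 2 E2A-alone peaks over 100 kb away. Il6ra, the interleukin 6 receptor, had a joint peak of 1806.02 and 397.5, and Flt3 had HEB alone at 442.55 and E2A alone at 67.45. Il7r, the interleukin 7 receptor, had 2 E2A-alone peaks of up to 59.52 and none for HEB. Of 13 chemokine and egress receptors, 10 (76.92%) had a HEB-alone and 5 (38.46%) an E2A-alone peak, with a median span of 5.278 kb. Of 15 cytokine receptors 11 (73.33%) and 7 (46.67%) did, with a median span of 32.37 kb. Among all genes 22.5% had a HEB-alone and 31.2% an E2A-alone peak. HEB-alone peaks and no other class were assigned to 4 genes of each list, and to 9.034% of all genes. Socs3, a cytokine signal inhibitor, had joint peaks of 1880.86 and 379.73, while Socs1 had HEB alone at 338.59. Bcl2l1, the survival gene of BCL-XL, had HEB alone at 487.8, whereas the death genes Bbc3 and Bcl2l11 had joint peaks within the gene with HEB at 744.0 and 508.38 and E2A at 61.37 and 56.98. Cd27, a costimulatory receptor of gamma-delta precursors, had HEB alone at 133.27.

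Over all lymphoid, signalling and cell cycle lists together, 285 genes, 44 (15.44%) had a joint peak, 154 (54.04%) a HEB-alone and 108 (37.89%) an E2A-alone peak. Among all genes these shares were 5.28%, 22.5% and 31.2%. The median span of the 285 genes was 24.44 kb. Strong HEB-alone peaks were assigned to 93 of them and strong E2A-alone peaks to 22, against 1315 and 907 of all 21895 genes. Among 65 marker genes of B, myeloid, erythroid, stromal, liver and neuronal cells, the counts were 9 (13.85%), 20 (30.77%) and 25 (38.46%). The joint and E2A-alone shares of these markers were close to those of the lymphoid genes. Of the 9 markers with a joint peak, however, 7 were neuronal genes, whose median span was 911.1 kb. The other joint markers were Itgam, the integrin of myeloid cells, with HEB at 1134.41 and E2A at 141.17, 3536 bp away, and Col3a1, a collagen gene, with 80.63 and 98.75. A HEB-alone peak that overlapped a DN3 E2A peak was assigned to 117 (41.05%) of the lymphoid genes, 5 (7.692%) of the markers and 8.874% of all genes.

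The classes differed in how often the same place had a peak at the other stages. Of joint HEB peaks, 620 (41.03%) had a peak in all 4 DN3 and CD73- lists and 18.93% had one in none. Of HEB-alone peaks 4.422% had all 4 and 55.04% none. Of E2A-alone peaks 0.1248% had all 4 and 89.24% none. The difference for E2A remained among strong peaks. Of 1022 strong E2A-alone peaks, 3.425% overlapped a DN3 E2A peak, against 82.64% of 1676 strong HEB-alone peaks and 90.66% of 782 strong joint HEB peaks. DN3 E2A was the list that strong E2A-alone peaks met least, and 11.45% of them overlapped a DN3 HEB peak. A peak in any of the 4 lists met 22.31%, 89.5% and 97.95% of the 3 strong sets in turn. Some strong E2A-alone peaks of named genes repeated the same score. Those at Kit, Gata3, Rbpj and Ptpn11 all scored 129.0 at widths of 68 or 69 bp, with no peak in the other lists. What share of the strong set such peaks made up was not tested. Of 34 E2A-alone peaks scoring 200 to 500, 11.76% overlapped a DN3 E2A peak. So did 16.67% of 6 peaks at 500 to 1000 and all 4 at 1000 or more. DN3 peaks were the widest, with a median of 617 bp for E2A against 175 bp in the CD73+ E2A list, which raises every overlap with them. Strong HEB-alone peaks were close to joint peaks in the DN3 overlap but not in the CD73- lists, where 26.25% overlapped an E2A peak and 41.47% a HEB peak, against 82.23% and 87.34% of strong joint peaks.

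**Figure D4:**
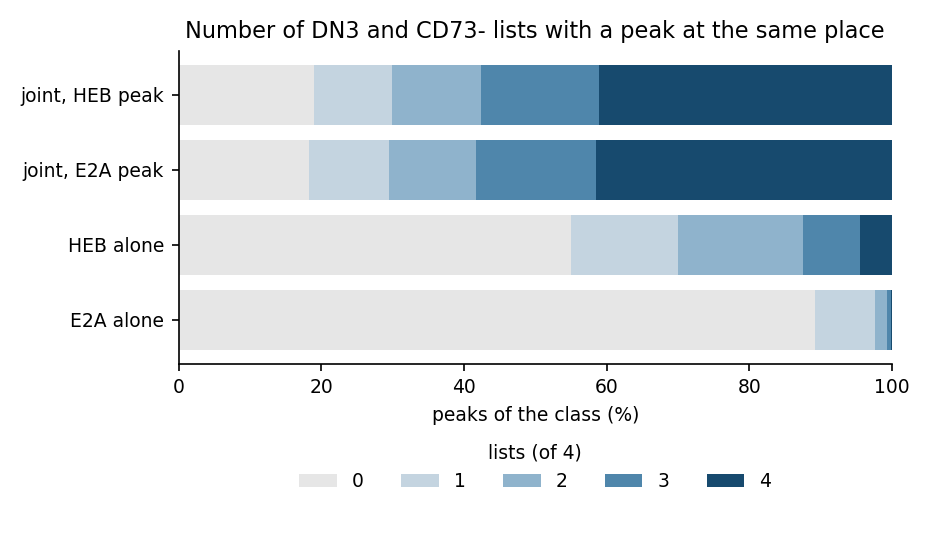
Percentage of each class of CD73+ peak (horizontal axis) with an overlapping peak in 0, 1, 2, 3 or 4 of the DN3 and CD73- lists of E2A and HEB. Joint peaks had all 4 in 41.03% (HEB peaks) and 41.44% (E2A peaks), HEB-alone peaks in 4.422% and E2A-alone peaks in 0.1248%.

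Named genes showed the same gradations at single sites. At the joint Notch3 peak the other lists scored 2271.79 (DN3 E2A), 1590.62 (DN3 HEB), 504.68 (CD73- E2A) and 724.64 (CD73- HEB). At the HEB-alone Nr4a1 peak they scored 413.75, 378.57, 111.46 and 134.9 in that order. All 4 lists thus held a peak where the CD73+ E2A list had none. At the HEB-alone Rag1 peak the scores were 551.54, 127.29, none and 70.61, and at that of Dntt 854.23, 323.79, 52.38 and 65.68. The HEB-alone peak near Icos, a costimulatory receptor, was an exception, at 489.63 in CD73+ cells with no DN3 peak and 69.42 for E2A in CD73- cells.

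E2A-alone peaks lay farther from genes. Their median distance to a gene span was 37550 bp, against 6712 bp for HEB alone and 9477 bp for joint HEB peaks, and 36.51% were over 100 kb away, against 19.85% and 23.89%. Within 1 kb of a start site were 109 of 20968 E2A-alone peaks (0.5198%), 568 of 8453 HEB-alone peaks (6.72%) and 68 of 1462 joint HEB peaks (4.651%). Of HEB-alone peaks at start sites, 40.49% overlapped a DN3 E2A peak, and of those elsewhere 34.99%. Chromosome X held 9.201% of E2A-alone and 5.678% of HEB-alone peaks. E2A-alone peaks were assigned to 255 of 1106 olfactory receptor genes (23.06%) and 147 of 353 vomeronasal receptor genes (41.64%), gene families used for smell. Of all genes 31.2% had such a peak, so the olfactory share was below and the vomeronasal share above it. HEB-alone peaks were assigned to 73 (6.6%) and 52 (14.73%) of them, both below 22.5%. Reads of such near-identical families may be misplaced, so these assignments are uncertain.

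**Figure D5:**
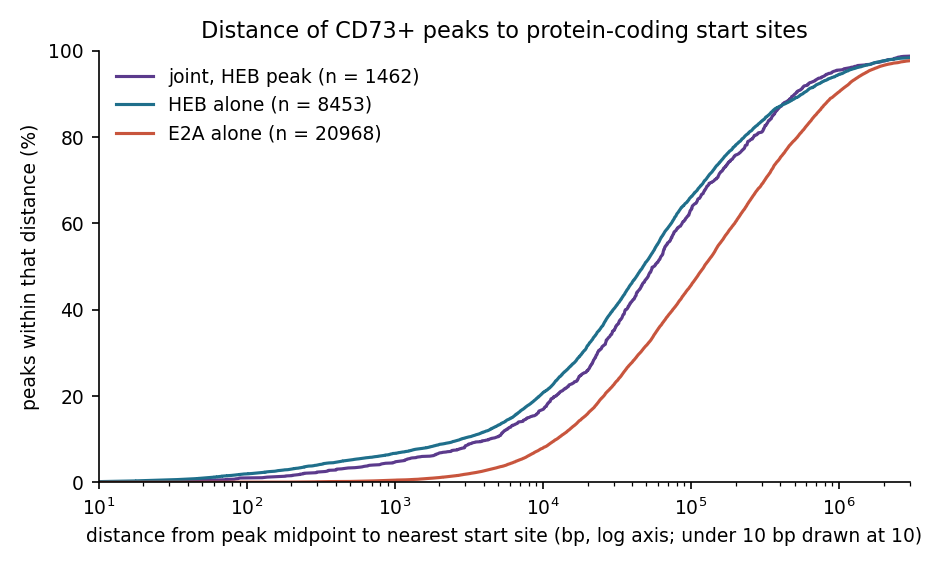
Percentage of CD73+ peaks (vertical axis) whose midpoint lay within a given distance of the nearest protein-coding start site (horizontal axis, bp, log scale), by class. At 1 kb the curves stand at 6.72% for HEB alone, 4.651% for joint HEB peaks and 0.5198% for E2A alone.

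The 4 E2A-alone peaks scoring over 1000 were all narrow. They lay nearest Sulf1 (1147.03), a heparan sulfatase gene, Pla2r1 (1092.23), a phospholipase receptor gene, Dpp9 (1075.61), a peptidase gene, and Olfr854 (1021.66), with widths of 110 to 119 bp. Each had a peak in all 4 other lists, and at Sulf1 those scored 74.44 and 843.14 in DN3 cells and 503.48 and 1096.0 in CD73- cells, for E2A and HEB in turn. The nearest CD73+ HEB peak was 667042 bp away at Sulf1 and 25247 bp at Olfr854. Further E2A-alone peaks stood at Cartpt (784.9), a neuropeptide gene, and Ano2 (533.79), a channel gene. The Cartpt peak was 1377 bp wide and had no peak in any of the other 4 lists.

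Clustered core histone genes, which are transcribed in S phase, were a group at which HEB peaks were frequent and E2A-alone peaks few. Of 57 such genes, 34 (59.65%) had a HEB-alone peak, 9 (15.79%) a joint peak and 2 (3.509%) an E2A-alone peak. Among all genes these shares were 22.5%, 5.28% and 31.2%. The median span of the histone genes was 0.487 kb. The 42 HEB-alone peaks scored from 52.32 to 342.9 with a median of 91.49, and 39 lay within 1 kb of a start site. The highest were at H2bc14 (342.93, chr13:21721446-21721877) and H2ac23 (289.77). Among the joint peaks, H2ac11 had HEB at 286.86 and all 9 joint E2A peaks scored under 100. Over whole lists, 51 CD73+ HEB peaks were nearest a core histone gene, against 5 in DN3 HEB, 19 in CD73- HEB, 5 in DN3 E2A, 6 in CD73- E2A and 11 in CD73+ E2A. Histone genes are near-identical copies, so which gene a read belongs to is uncertain. This family was chosen after values had been seen.

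The joint peaks with the highest E2A scores were not those of the lymphoid genes named above. By the smaller of both scores, those at the top included peaks nearest Alkbh8, Esp38, Lrrc4c and Rpusd4, at 3100.0 for both factors, a value shared by 9 HEB and 8 E2A peaks. The joint peak nearest Alkbh8 was 38432 bp wide and 296809 bp from the gene (chr9:2999991-3038422), and those nearest Lrrc4c were over 1 Mb from it. The places of these 4 peaks scored 3100.0 in both DN3 lists as well. The joint peak nearest Ly6c2 was similar in this, at 2990.12 in DN3 E2A and 3100.0 in DN3 HEB. No list of high-background regions was used here, so such places, if any, are among the strongest joint peaks counted above, and their part in those shares was not tested. Joint peaks also crowded at predicted genes, with 25 joint HEB peaks nearest Gm40363 on chromosome 6 and 18 nearest Gm21119 on chromosome 8. Of joint HEB peaks, 14.23% were assigned to a gene with a predicted or numbered name, against 12.07% of HEB-alone and 10.82% of E2A-alone peaks. On chromosome Y, 33 of 100 HEB peaks were joint.

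Across the genome 1155 genes (5.275%) had a joint peak, and 244 of them had no single-factor peak. HEB-alone peaks only were assigned to 1978 genes, E2A-alone peaks only to 3800, and both kinds but no joint peak to 2285. Genes with a joint peak were long, with a median span of 51.84 kb against 17.15 kb for all genes and 11.85 kb for the 12677 with no peak. A longer gene, or one far from its neighbours, can gather more peaks by construction, which limits the reading of every count of genes above.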

How the data were processed

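E2A and HEB peak lists of CD73+ cells were compared, with the DN3 and CD73- lists as reference. The submitters' processing notes name build mm10, MACS 1.4.2, HOMER and Bowtie, and per the labels' protocols duplicates were joined before peak calling. The deposited score is the authors' and stands for 10 times the negative log10 of p; it was not changed. Depth is unknown. Overlap required at least 1 bp. Peaks went to the nearest span among 21887 protein-coding genes and 8 T cell receptor constant regions of the RefSeq table. Start sites came from promoter windows of 17492 genes (79.89%). The 350 symbols of 31 gene lists were matched, and 5 families were picked by symbol. Named genes were, for each list, the highest members with a joint or single-factor peak, the highest peaks of each class, the genes with most joint peaks, and a set of regulators named whatever their values. Members and lists were chosen with earlier results of these data known. The planned motif search was limited to promoter windows. Wilson intervals (95%) cover counting error only. Alternatives were a score of 100, overlap of 50% of both peaks, midpoints within 200 bp, gaps of up to 500 bp, equal list lengths, width and distance limits, all sequences and other gene rules. The overlap code was tested on simulated data. Scripts ran in Python 3.11.15 (pandas 2.3.3, numpy 2.4.6, scipy 1.17.1; figures with matplotlib 3.10.9).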

Additional observations from a re-analysis of the deposited data

Results flagged for a closer look

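On sequences outside chromosomes 1 to 19, X and Y, which the comparison did not use, 67 of 145 CD73+ E2A peaks (46.21%) and 67 of 131 CD73+ HEB peaks (51.15%) were joint, with scores of up to 2450 for E2A and 1798 for HEB. These were singled out as signal in data that the comparison left aside, for the shares on the main chromosomes were 6.749% and 14.82%. No gene was assigned to them.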

How the results depend on the processing

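For joint HEB peaks, joint E2A peaks, and the shares of joint, HEB-alone and E2A-alone peaks with a DN3 or CD73- peak, the reported values were 14.82%, 6.749%, 81.07%, 44.96% and 10.76%. With peaks of both lists at 100 or more they were 17.86%, 27.5%, 98.86%, 90.74% and 31.41%. With lists of equal length 10.64%, 10.93%, 86.45%, 46.01% and 13.7% were found, so that the joint share of HEB no longer exceeded that of E2A. With overlap over 50% of both peaks they were 8.937%, 3.926%, 80.68%, 47.33% and 12.89%. With gaps of up to 500 bp they were 19.14%, 8.658%, 72.22%, 45.13% and 10.33%. Midpoints within 200 bp gave 6.425% of E2A, and leaving out peaks over 500 kb from a gene gave 7.189% of E2A and 46.15% of HEB alone. In these settings joint peaks kept the highest share with a peak at other stages and E2A-alone peaks the lowest. The 1155 genes with a joint peak became 383 at a score of 100, 766 with the 50% overlap and 656 with the nearest gene within 10 kb only.

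Among settings chosen after seeing the data, the top 1000 peaks per list gave 24.6% and 25.4% joint, then 100%, 97.88% and 43.57%, and 223 genes. Counting pairs with a HEB peak of 300 bp or less as alone gave 6.004% and 2.909%, then 97.71%, 47.29% and 13.08%, and 459 genes. Apart from the fewer peaks or genes that a setting leaves by construction, the cause of each shift was not tested. No paired analysis was possible because each group has 1 pooled list. Read depth is unknown, so a peak missing from one list may be a place that was not detectable there.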
